A study of Homo sapiens with 20 samples.

Results

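Retained-intron transcripts are the spliced products of a gene that keep intronic sequence, and the annotation gives them a class of their own. The transcripts described here were chosen by their level in control libraries: they are the entries of that class with a mean level of at least 1 TPM, a relative abundance that is corrected for transcript length and scaled to the same total in each library, over the 5 control exosome libraries or over the 5 control granule libraries. In all, 3588 of 34052 annotated retained-intron transcripts met this rule, out of 251955 named transcripts in the files. They came from 2097 genes, of which 2075 also had a protein-coding transcript. These 3588 transcripts are called members below, and each carries the number of its transcript after the gene symbol.

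Total RNA was sequenced with a stranded protocol from exosomes and from cytoplasmic RNA granule cores of the human embryonic kidney line HEK293. The cells were either in their control state or in a state labelled HD-induced (HD, Huntington's disease). Exosomes are small vesicles that cells release, and RNA granules are membraneless assemblies of RNA and protein inside the cell. The 4 groups were control exosomes, HD exosomes, control granules and HD granules, with 5 libraries each that the study calls biological replicates. The sources used here do not give how the HD state was induced or in what clone of the line. All p-values measure the spread between these libraries, and each library is a bulk preparation, in which fewer vesicles or granules with a transcript and fewer copies in each cannot be told apart.

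Named transcripts received 5300770 to 9039448 estimated reads in the control exosomes, 11355356 to 24514989 in the control granules and 17729424 to 23898884 in the HD granules. The HD exosomes were uneven. Replicates 1, 2, 3 and 5 held 7405993, 1941886, 1327496 and 3003716 named reads, whereas replicate 4 held 713, of which 36.0 fell on 30 members. In HD exosome 2, 86.6% of the reads lay on entries without a gene name, against at most 46.3% in a control exosome. HD granule 3 also stood apart: members that passed the rule in exosomes only made up 0.259% of its named TPM, against 0.0286% to 0.0579% in the other HD granules. The main counts are given with and without HD exosome 4 or all 3 of these libraries. Of 10 marker genes of the line, 8 had a mean of at least 1 TPM in control exosomes and 7 in control granules, with VIM and KRT8 the highest in control exosomes, and 2 (NEFM and PAX2) were near 0 in both. Hemoglobin and other red blood cell mRNAs summed to 35.8 to 188 TPM in control exosomes and to 9.42 to 33.3 TPM in control granules, and reached 4089 TPM in 1 HD exosome. SLC4A1, which encodes the anion exchanger of the red cell membrane, had a mean of at most 0.150 TPM in each of the 4 groups. Keratinocyte genes summed to 2.38 to 215 TPM in HD exosomes and to less than 1 TPM in every granule library, and 7 leukocyte genes summed to at most 6.55 TPM in any library. The part of these other RNAs in the differences below was not tested.

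Introns are normally removed from a pre-mRNA before it leaves the nucleus. A transcript that keeps an intron is often held in the nucleus, and if exported it usually carries a premature stop codon and can be degraded by nonsense-mediated decay. Some retained introns are detained: the transcript waits in the nucleus and is spliced later, as is known for MAT2A and for the CLK kinases. Introns can also carry small nucleolar RNAs (snoRNAs), which guide chemical modification of ribosomal RNA and are released from the host intron after splicing.

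Sequences of introns that members kept whole are shown first, because the 2 compartments held members with different introns. They were read from GENCODE release 29 (build GRCh38), in which 3081 members (85.9%) were found, and they run 5′ to 3′ on the strand of the gene. Capitals mark the first 6 and the last 3 bases, the annotated splice sites. The first 4 introns belong to members that passed the rule in granules but not in exosomes. The last 4 belong to GNB2-212, CKB-208 and SLC25A39-215, which passed it in exosomes only, and to MRPS11-204, which passed it in both groups with the higher level in exosomes.
PABPC4-209 intron, chr1:39563742-39563835, minus strand: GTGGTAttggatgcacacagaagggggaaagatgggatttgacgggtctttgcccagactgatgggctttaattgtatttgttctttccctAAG
GAS5-216 intron, chr1:173865895-173866176, minus strand: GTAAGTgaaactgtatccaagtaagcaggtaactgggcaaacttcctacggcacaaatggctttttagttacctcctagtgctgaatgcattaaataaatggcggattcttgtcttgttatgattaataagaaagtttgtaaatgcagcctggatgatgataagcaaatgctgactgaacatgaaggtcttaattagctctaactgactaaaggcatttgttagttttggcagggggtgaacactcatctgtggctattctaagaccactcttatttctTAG
GAS5-216 intron, chr1:173866568-173866760, minus strand: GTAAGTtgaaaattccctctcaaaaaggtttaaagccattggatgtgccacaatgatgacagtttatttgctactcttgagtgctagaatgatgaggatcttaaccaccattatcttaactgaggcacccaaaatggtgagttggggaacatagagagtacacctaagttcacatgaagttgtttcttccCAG
MAT2A-204 intron, chr2:85541378-85541632, plus strand: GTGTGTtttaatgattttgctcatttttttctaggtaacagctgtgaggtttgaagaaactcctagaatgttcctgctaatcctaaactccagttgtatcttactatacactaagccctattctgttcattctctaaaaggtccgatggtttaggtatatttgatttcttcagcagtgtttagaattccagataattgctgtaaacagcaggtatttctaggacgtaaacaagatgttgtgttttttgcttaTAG
GNB2-212 intron, chr7:100677661-100677751, plus strand: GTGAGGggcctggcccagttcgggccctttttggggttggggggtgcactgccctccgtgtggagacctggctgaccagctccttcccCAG
CKB-208 intron, chr14:103521951-103522022, minus strand: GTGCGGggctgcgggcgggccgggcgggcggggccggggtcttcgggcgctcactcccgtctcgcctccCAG
SLC25A39-215 intron, chr17:44320277-44320354, minus strand: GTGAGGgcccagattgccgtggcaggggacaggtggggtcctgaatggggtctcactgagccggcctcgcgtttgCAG
MRPS11-204 intron, chr15:88467783-88467907, plus strand: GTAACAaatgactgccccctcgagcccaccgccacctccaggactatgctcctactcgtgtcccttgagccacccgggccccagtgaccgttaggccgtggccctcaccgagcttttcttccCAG
The 4 introns of the exosome side were 72 to 125 bases long with 63.2% to 83.3% G or C. The printed introns of the granule side were 94 to 282 bases long with 34.9% to 45.7% G or C, and both GAS5 introns opened with GTAAGT. PABPC4-209 keeps another intron, not printed, of 285 bases with 56.5% G or C, and the intron of the exosome-only member BAX-210, also not printed, has 87 bases with 50.6%. These introns were picked after their values were seen.

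Over the members as a whole the introns differed in the same way. Of 3081 members placed on the annotation, 943 (30.6%) held at least 1 whole intron, 1172 introns in all. The 116 introns of exosome-only members had a median of 132.5 bases and 64.2% G or C, and the 853 introns of granule-only members had 290 bases and 44.5%. A donor site with GTAAGT, searched on the strand of the gene at the first 6 bases of the intron, was present in 1.75% of the exosome-only introns and 14.7% of the granule-only introns. It was present in 6.96% of 8160 readable donor sites in retained-intron transcripts under the threshold. GTGAG opened 44.7%, 27.4% and 33.4% of them. These letters describe the annotated introns, and no binding by a splicing factor was measured.

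Most members owed their place to the granules. In the control libraries, 2228 members (62.1%) reached the threshold in granules only, 491 (13.7%) in exosomes only and 869 in both. At the same threshold, 26.7% of 1860 nonsense-mediated decay transcripts, 35.1% of 2299 transcripts of coding genes without a defined coding sequence, and 14.2% of 17123 protein-coding transcripts passed in granules only. The median member stood at 0.576 TPM in control exosomes and 1.60 TPM in control granules. Since the rule used these libraries, the split is a description.

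**Figure D1:**
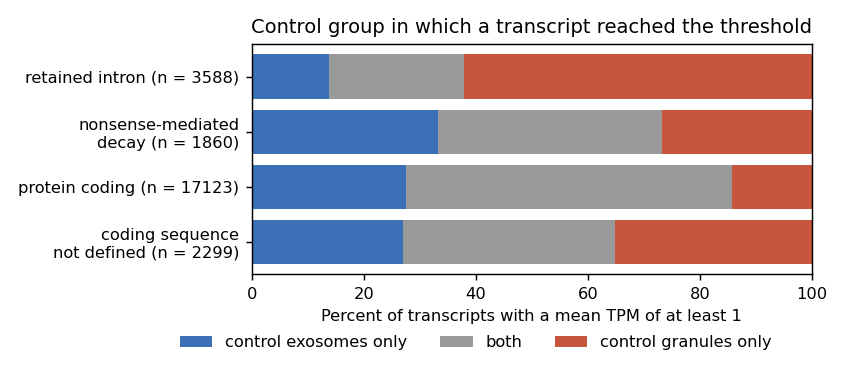
Share of transcripts (percent, x axis) of 4 annotated classes that reached a mean of 1 TPM in control exosomes only (blue), in both control groups (grey) or in control granules only (red). The granule-only part is 62.1% for retained-intron transcripts and 14.2% for protein-coding transcripts.

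The threshold cut through a continuum. Just inside it were ATP6V1A-203, PKM-208 and HELLS-213, all with a mean of 1.00 TPM in control granules. Just outside were GUK1-218 at 0.999 TPM, NDUFB2-214 at 0.998 TPM and BTG3-205 at 0.998 TPM. A threshold of 0.5 TPM would have given 6794 members and one of 2 TPM 1693, and 869 had a mean of at least 1 TPM in both control groups.

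In every library the members formed a modest part of the output of their genes. They held 9.52% to 10.6% of the TPM of their host genes in control exosomes and 12.3% to 15.4% in control granules. In HD granules they held 11% to 13.9%, and in HD exosomes 9.0% to 11.5% without replicate 4, which reached 16.2% from its 36.0 member reads. The granule-only members alone made up 0.225% to 0.244% of named TPM in control exosomes and 1.09% to 1.56% in control granules. The same members held 1.08% to 1.54% in HD granules and 0.193% to 0.478% in HD exosomes 1, 2, 3 and 5, so without replicate 4 the HD groups did not overlap.

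**Figure D2:**
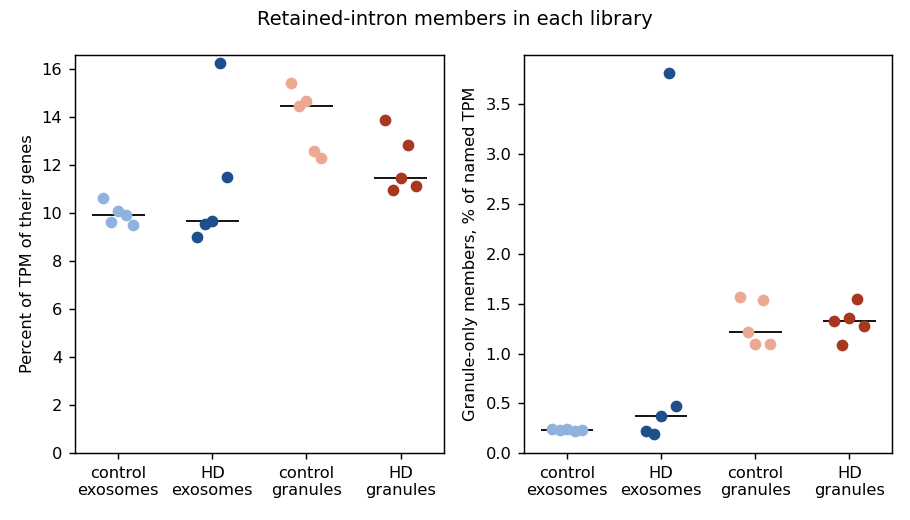
Left, percent of the TPM of their host genes held by all 3588 members, one point per library, with the group median as a line. Right, percent of all named TPM held by the 2228 granule-only members. HD exosome 4, with 713 named reads, is the high point in both panels, at 16.2% and 3.81%.

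In control exosomes 111 members had a mean of at least 10 TPM, and in control granules 166. Large-subunit ribosomal protein gene RPL4 gave the highest member in exosomes. RPL4-205 measured 405, 854, 514, 698 and 776 TPM in control exosomes 1 to 5, and 235, 132, 211, 8.47 and 46.6 TPM in control granules 1 to 5. All control exosomes lay above all control granules, and granules 4 and 5 were far below the other 3. In HD granules RPL4-205 measured 205, 121, 24.7, 170 and 72.1 TPM, and in HD exosomes 729, 129, 607, 0 and 894 TPM. The HD groups overlapped, and the difference did not pass the test (log2 fold change -1.39, SE 0.93, edgeR adjusted p = 0.391). RPL4-205 keeps no intronic base in release 29, so reads on it cannot be told from exonic reads of its gene by position alone.

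RPL11-205, from the gene of another large-subunit protein, was the dominant product of its gene in both compartments. It held 63.4% to 75.4% of RPL11 TPM in control exosomes and 67.9% to 71.5% in control granules, at 291 ± 32 TPM and 503 ± 240 TPM (SD, n = 5 each). In HD granules it held 64.9% to 73.17% of the gene. Other members that made up most of their gene were WHAMMP1-203 (86.6% in control granules), SIRT7-218 (79.6%), MLXIP-204 (76.1%), RPL14-208 (73.0%), and OAZ1-208, at 64.3% to 74.4% of OAZ1 TPM in control exosomes. Of these, RPL11-205, RPL14-208 and OAZ1-208 held 7.05%, 1.64% and 3.17% intronic bases, so most of their length is shared with other transcripts of the gene, and the authors' quantification had to divide such reads between them.

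Whether retained-intron transcripts also lie on the granule side in the HD-induced cells was asked with HD granules against HD exosomes, libraries that took no part in choosing the members. The fit was run on all named transcripts, and a transcript was called at an adjusted p under 0.05. Of 2821 members tested, 822 (29.1%) rose in HD granules, in 593 genes, and 2 (TPI1-204 and MDH2-202) fell. Among all 38443 transcripts tested, 11.2% were called higher in granules and 0.177% lower. The median log2 fold change of the members was 2.41 (quartiles 0.99 and 3.84), against 0.89 for all transcripts tested. The remaining members did not pass the filter on low counts, which asks for the minimum in at least 5 of the 10 libraries. With 713 reads in HD exosome 4, a member that is high in exosomes alone could hardly pass it: 180 of the 491 exosome-only members described below were tested, which limits the count of members that fell.

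The uneven HD exosomes set limits on this count. Without HD exosome 4, 951 of 3297 members (28.8%) were higher and 9 lower, beside 13.6% and 0.694% of 51851 transcripts, and 719 of the 822 were called again. Without HD exosomes 2 and 4 and HD granule 3 the counts were 1136 (34.0%) and 31 (0.929%) of 3338, beside 17.8% and 2.22% of 55050 transcripts. With 1 library left out, the calls in both directions ranged from 372 (without HD granule 4) to 1490 (without HD exosome 5), with 404, 377 and 409 without HD granule 1, 2 or 5 and 1338 and 1307 without HD exosome 1 or 2. The higher shares were 14.6% of members and 5.53% of all transcripts without HD granule 4, and 45.5% and 21.7% without HD exosome 5. Without a filter on low counts there were 147 calls, with 4% of members and 0.294% of all transcripts higher. Low reads in exosomes also shaped which members could pass the filter on low counts. In 440 members all 5 granule libraries and no exosome library were over the minimum, and such members had to differ: 432 of them were called. Among the 843 members with all 5 granules and at least 3 exosome libraries over the minimum, 160 were higher (19.0%) and 1 lower, with a median log2 fold change of 1.47. For protein-coding transcripts under the same condition, 245 of 11667 (2.10%) were higher and 28 lower, with a median of 0.26. Over all transcripts tested under this condition, 488 of 14758 (3.31%) were higher and 35 lower, with a median of 0.37.

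The 869 members that reached the threshold in both control groups, and so were not chosen for being higher in granules, gave 91 higher and 1 lower of 824 tested (11%), close to the 11.2% of all transcripts. Their median log2 fold change was 1.10. Of the granule-only members 730 of 1817 (40.2%) were higher, with a median of 3.19, and of the exosome-only members 1 of 180 was higher, with a median of -0.69 (10 of 279 without HD exosome 4). Without any threshold on level, 2026 of 7367 annotated retained-intron transcripts were higher (27.5%) and 2 lower. The corresponding shares were 11.5% of nonsense-mediated decay transcripts, 5.65% of protein-coding transcripts and 18.7% of lncRNA transcripts.

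For the control cells, whose libraries chose the members, 1516 of 3151 members tested were called higher in granules and 176 higher in exosomes, beside 19.2% and 13.7% of all 42932 transcripts tested. Nothing is read from these counts.

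Members named by the rule given with the processing are shown by library. TAF1D encodes a subunit of the complex that recruits RNA polymerase I, and TAF1D-213 (chr11:93730667-93732268, minus strand, 1066 bases) consists of intronic sequence throughout and overlaps the snoRNA genes SNORA32 and SNORA1. It measured 1.59, 3.88, 3.14, 4.6 and 2.25 TPM in control exosomes and 127, 106, 109, 100 and 166 TPM in control granules. In HD exosomes it measured 2.21, 0.0663, 0, 0 and 8.68 TPM, and in HD granules 101, 122, 7.23, 202 and 240 TPM. The control groups lay far apart, and in the HD groups exosome 5 lay above granule 3, the library noted above. TAF1D-213 rose in HD granules (log2 fold change 6.94, SE 1.38, edgeR adjusted p = 0.0076). TAF1D-213 held 43.2% to 58.4% of TAF1D TPM in control granules and 5.16% to 11% in control exosomes.

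Chaperonin gene CCT2 and translation initiation gene EIF4A1, which encodes an RNA helicase, gave members whose share of the gene changed with the compartment. CCT2-210 measured 1.05, 0.791, 0.998, 0.262 and 0 TPM in control exosomes and 14, 6.97, 18.9, 22.9 and 32.8 TPM in control granules. In HD exosomes it was detected in replicate 1 only, at 0.467 TPM, and in HD granules it measured 15.2, 21.5, 8.02, 21.3 and 38.4 TPM. All granules lay above all exosomes in both states, with a log2 fold change of 7.4 (SE 1.25) in the HD libraries. CCT2-210 had 5.22 reads over all HD exosomes, and no exosome library reached the minimum of the filter on low counts. It passed that filter through the granules only and had to differ, so no p is given. EIF4A1-230, which spans the snoRNA gene SNORA48, measured 5.42, 2.85, 0, 0 and 2.65 TPM in control exosomes and 21.8, 18, 31.1, 21.2 and 56.7 TPM in control granules. In HD exosomes only replicate 3 was above 0, at 4.70 TPM, and HD granules gave 25.7, 52.5, 8.06, 57.1 and 44.3 TPM. The groups did not overlap in either state, with a log2 fold change of 6.64 (SE 1.49) in the HD libraries. EIF4A1-230 had 8.249 reads over all HD exosomes, all in replicate 3. It also passed the filter on low counts through the granules, so no p is given. Its share of EIF4A1 TPM was 12.5% to 27.8% in control granules and at most 2.21% in control exosomes.

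RPL18-216, from a large-subunit ribosomal protein gene, was almost absent from exosome libraries. It was at 0 in 4 control exosomes and at 1.56 TPM in the other, and at 38.4, 19.5, 35.2, 24.6 and 41.2 TPM in control granules. HD exosomes repeated this, with 1.92 TPM in replicate 3 and 0 elsewhere, and HD granules gave 34.7, 43.9, 6.28, 49.1 and 49.2 TPM. The groups did not overlap, with a log2 fold change of 8.18 (SE 1.43) in the HD libraries. RPL18-216 had 3.207 reads over all HD exosomes, all in replicate 3. It passed the filter on low counts through the granules, so no p is given. MAT2A-204, which keeps the MAT2A intron printed above, comes from the gene of the enzyme that makes the methyl donor S-adenosylmethionine. It measured 12.3, 8.79, 12.6, 17.6 and 18.2 TPM in control granules and 1.13, 0.436, 0, 2.74 and 0.151 TPM in control exosomes. In HD granules it measured 13.6, 12.5, 13.3, 10.9 and 14.5 TPM, and in HD exosomes 1.87, 0, 0, 0 and 4.62 TPM. All granules were above all exosomes, and the difference just passed (log2 fold change 3.73, SE 1.13, edgeR adjusted p = 0.0494), and it was lost without HD exosome 4 or HD granule 1, 2, 4 or 5 (edgeR adjusted p from 0.0661 to 0.142).

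Several members had no read in any HD exosome, where a fold change can only be bounded. Over the 5 libraries of each group, with a floor of 3 reads for the exosomes, GAS5-282 was at least 575-fold higher in HD granules. It measured 37.9, 70.7, 5.09, 91.8 and 66.5 TPM there, and 39.4, 27.5, 42.3, 30.6 and 50.7 TPM in control granules. In control exosomes it measured 0, 0, 2.20, 2.66 and 0 TPM, below every control granule. GAS5 is a noncoding host gene of snoRNAs. By the same bound GAS5-216 was at least 413-fold higher, HSPA5-212 (from the gene of the endoplasmic reticulum chaperone BiP) at least 355-fold, SNHG29-219 at least 285-fold and PABPC4-209 (from the gene of a cytoplasmic poly(A)-binding protein) at least 262-fold. SPCS3-204, from a signal peptidase subunit gene, was at least 194-fold higher, at 18.6, 19.2, 2.13, 32.0 and 37.9 TPM in HD granules. In all, 569 members had no read in any HD exosome. Of these, 243 were called higher in HD granules. Such members can pass the filter on low counts through the granules only. Those that passed it in all granules had to differ, so the bounds are given in place of a test.

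Ribosomal protein gene RPS23 gave a member that was abundant on both sides. RPS23-203 measured 80.3, 199, 123, 137 and 138 TPM in control exosomes and 487, 270, 536, 610 and 645 TPM in control granules. HD granules gave 428, 872, 469, 829 and 728 TPM, and HD exosomes 155, 22.4, 250, 3935 and 388 TPM, where the highest value is that of replicate 4. Apart from that library the groups did not overlap, and RPS23-203 rose in HD granules (log2 fold change 2.50, SE 0.65, edgeR adjusted p = 0.0233). The call was lost without HD granule 1, 2, 4 or 5 (edgeR adjusted p from 0.0525 to 0.0963).

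**Figure D3:**
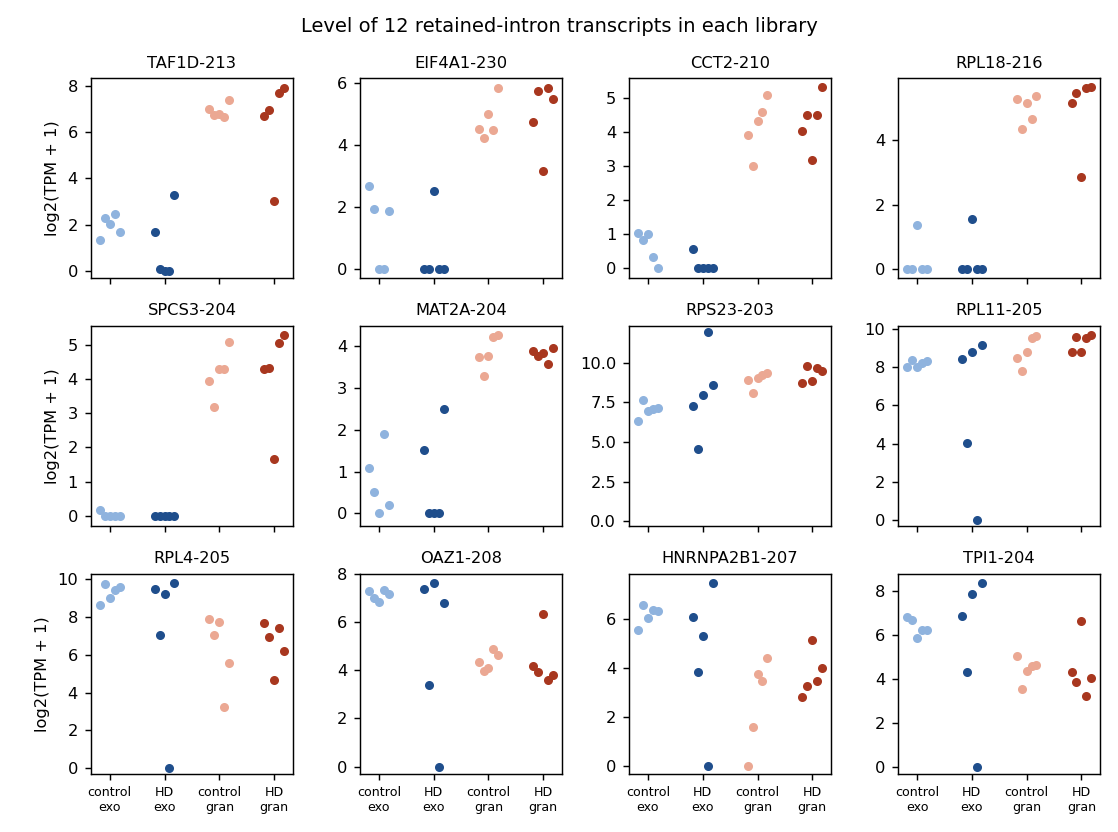
Level of 12 members in each library on a log2(TPM + 1) scale (y axis), one point per library, with replicates 1 to 5 from left to right in each of the 4 groups. TAF1D-213, EIF4A1-230, CCT2-210, RPL18-216, SPCS3-204 and MAT2A-204 lie higher in granules, and the bottom row holds members with higher levels in most exosomes than in most granules.

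A small number of members leaned to the exosomes. TPI1-204, from the gene of the glycolytic enzyme triosephosphate isomerase, measured 110, 99.7, 56.4, 73.7 and 72.8 TPM in control exosomes and 31.7, 10.5, 19.2, 23.2 and 23.7 TPM in control granules. In HD exosomes it measured 114, 18.5, 231, 0 and 324 TPM, and in HD granules 19.1, 13.3, 98.9, 8.43 and 15.3 TPM. The HD groups overlapped through exosomes 2 and 4 and granule 3, and TPI1-204 fell in HD granules (log2 fold change -2.39, SE 0.71, edgeR adjusted p = 0.0435). MDH2-202, from the gene of mitochondrial malate dehydrogenase, measured 3.08, 1.33, 21.8, 0 and 16.4 TPM in HD exosomes and 0.264 to 1.93 TPM in HD granules, and also fell (log2 fold change -3.20, SE 0.93, edgeR adjusted p = 0.0394). In control exosomes MDH2-202 was at 0 in 4 libraries and at 0.529 TPM in the other. It passed the rule through the control granules only, so it lay on the granule side in control cells and on the exosome side in the HD libraries alone. TPI1-204 lost the call without HD exosome 3 or HD granule 1, 2, 4 or 5 (edgeR adjusted p from 0.0830 to 0.142), and MDH2-202 without HD exosome 3 or HD granule 2, 3, 4 or 5 (edgeR adjusted p from 0.0538 to 0.153).

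OAZ1 encodes an inhibitor of polyamine synthesis. OAZ1-208 measured 157, 129, 114, 161 and 142 TPM in control exosomes and 19.4, 14.8, 15.9, 28.2 and 24.2 TPM in control granules. In HD exosomes it measured 166, 9.36, 198, 0 and 112 TPM, and in HD granules 17.3, 14.3, 79.9, 11.2 and 12.8 TPM. With all HD libraries the difference did not pass (log2 fold change -1.81, SE 0.73, edgeR adjusted p = 0.142), and without HD exosome 4 it did (-1.95, edgeR adjusted p = 0.0189). MRPS11-204, with the short G and C rich intron printed above, had 7.36 ± 0.482 TPM in control exosomes and 1.15 ± 0.437 TPM in control granules (SD, n = 5). In HD granules it had 1.18 ± 1.67 TPM, with a log2 fold change against HD exosomes of -2.88 (SE 0.92, edgeR adjusted p = 0.0614). GNB2-212, CKB-208 and SLC25A39-215, from genes of a G protein subunit, creatine kinase B and a mitochondrial carrier, had 13.2, 6.73 and 4.02 TPM in control exosomes on average. In control granules they had 0.105, 0 and 0.922 TPM, and in the HD comparison SLC25A39-215 did not pass the test (edgeR adjusted p = 0.701) and the other 2 did not pass the filter on low counts, which asks for the minimum in 5 libraries. In HD exosomes CKB-208 had 39.4 ± 81.3 TPM and GNB2-212 6.16 ± 8.46 TPM (SD, n = 5).

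Each member can be set against the coding product of its own gene. For 2755 tested members of 1678 genes the most abundant coding transcript was tested too, and 2232 members (81.0%) had the higher log2 fold change towards HD granules, with a median difference of 2.13. Of those coding transcripts 47 were called higher in HD granules and 4 lower, with a median log2 fold change of 0.28. Among 802 members that rose, the coding transcript rose in 21, and had a log2 fold change of 0 or lower in 329. Members of one gene share these coding transcripts and are not replicates. The comparison includes members that passed the filter on low counts through the granules only, for which the difference was fixed in advance (432 of 440 called). With all 5 granules and at least 3 exosome libraries over the minimum, the median log2 fold change was 1.47 for members and 0.26 for protein-coding transcripts. For all transcripts tested it was 0.37. The members and the protein-coding transcripts were not matched by gene.

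A test of usage, which sets the change of a transcript against that of its gene, gave the same direction, mostly through granule-only members. In HD granules 468 of 2808 members (16.7%) took a higher share of their gene and 4 a lower share, beside 6.63% and 0.365% of all 33431 transcripts tested. The median usage difference was 1.75 on the log2 scale. In 431 of these 472 the level was also called in the same direction. By route, granule-only members gave 431 higher and 0 lower of 1815 (23.7%). Members of both control groups gave 36 higher and 2 lower of 816 (4.41% higher), under the 6.63% of all transcripts. Exosome-only members gave 1 higher and 2 lower of 177. The usage counts also include members that passed the filter on low counts through the granules only, and they were not split by this. Protein-coding transcripts gave 686 higher and 73 lower of 19928. In the control libraries, which the rule used, 963 of 3140 members had a higher share and 49 a lower share in granules, beside 9.1% and 2.81% of 37892 transcripts. Without HD exosomes 2 and 4 and HD granule 3, the HD counts were 597 (17.9%) and 23 (0.690%) of 3333, beside 7.17% and 1.13% of 49547 transcripts.

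The 4 members with a lower share in HD granules were HNRNPA2B1-207, ATF7IP2-218, NCK1-208 and PPIP5K1-219. HNRNPA2B1 encodes an RNA-binding protein with known roles in splicing and in sorting RNA to exosomes. HNRNPA2B1-207 held 68.4%, 76.8%, 74.5%, 79.7% and 73.1% of the TPM of its gene in control exosomes and 0%, 8.16%, 22.4%, 18.1% and 29.9% in control granules. In HD exosomes 1, 2, 3 and 5 it held 72.3%, 78.5%, 54.1% and 79.8%, and in HD granules 12.9%, 18.1%, 29.3%, 21.0% and 31.7%. No granule reached the lowest exosome with a read of the gene, in either state. The usage difference was -2.55 (log2, edgeR adjusted p = 0.0296), and the level alone did not pass with all libraries (log2 fold change -2.08, SE 0.80, edgeR adjusted p = 0.122). ATF7IP2-218 was at 0 in all 5 control granules and in 4 of 5 HD granules, and held 48.6% to 81.8% of its gene in control exosomes. Its usage difference was -6.55 (edgeR adjusted p = 0.0041), while ATF7IP2-214 of the same gene lay higher in HD granules (log2 fold change 6.96, SE 1.30). ATF7IP2-214 had 3.185 reads over all HD exosomes and passed the filter on low counts mainly through the granules, so no p is given.

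Such opposed members were not rare. Of 763 genes with at least 2 members, 345 had all members on 1 route (279 granules only, 26 exosomes only, the rest both), and 118 had an exosome-only and a granule-only member at once. HNRNPH1 and EIF4A2, the genes with the most members (13 each), were among them. HNRNPH1-240 had 13.1 ± 4.91 TPM in control exosomes and was at 0 in all 5 control granules. HNRNPH1-222 had 1.44 ± 0.91 TPM in control exosomes and 26.6 ± 14 TPM in control granules, and rose in HD granules (log2 fold change 5.50, SE 1.06, edgeR adjusted p = 0.0076). Over all HD exosomes it had 19.684 reads. EIF4A2-225 had 5.79 TPM in control exosomes and 0.0561 TPM in control granules on average, whereas EIF4A2-219 had 2.00 and 17.7 TPM.

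Intronic content, which the rule did not use, differed between the members. Against the annotated coding transcripts of the gene, a member held a median of 273 intronic bases, 33.5% of its length, and 29 members held none. Intronic bases are counted here as bases in no exon of the compared transcripts, which includes any beyond their ends. In 41.3% of members the 5′ end and in 48.1% the 3′ end lay in no such exon. Whether these members are fragments or have other start or end sites was not tested. Exosome-only members held a median of 14.9% intronic bases, members of both groups 23.8% and granule-only members 42.3%. Their G and C content was 55.2%, 45.7% and 42.9%. Protein-coding transcripts at the same threshold followed with 53.1%, 45.9% and 44.9%, the same order.

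In the HD libraries the share of members that rose was lower among members with few intronic bases. It was 10.1% of 267 members with up to 10% intronic bases, 16.3% of 498 with up to 25%, 31.4% of 894 with up to 50%, 36.4% of 557 with up to 75% and 33.6% of 128 above 75% and under 100%. The median log2 fold changes were 0.68, 1.34, 2.57, 2.88 and 2.54. Without HD exosome 4 the shares were 8.62%, 16.3%, 31.1%, 38.3% and 36.6%, and the medians 0.65, 1.52, 2.89, 3.31 and 2.81. Of 8 members that are intronic throughout, 4 rose, with a median of 3.42. The 22 tested members without an intronic base were an exception, with a median of 2.57 and 4 calls. Among members that passed in both control groups, the medians of the same 5 classes were 0.42, 0.65, 1.48, 2.02 and 1.29, the last over 18 members, and 6 that are intronic throughout had a median of 2.28. Spearman's rho between intronic share and log2 fold change was 0.32 over 2374 members and 0.37 over the 746 of both groups, against 0.16 over 5357 annotated retained-intron transcripts without a threshold on level, and rho with G and C content was -0.28. Members share genes and base composition, so these are descriptions.

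**Figure D4:**
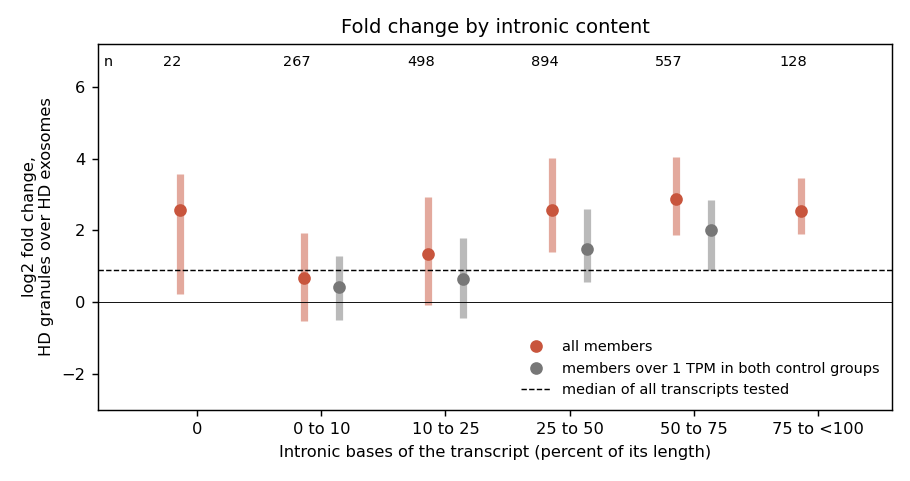
Log2 fold change of HD granules over HD exosomes (y axis) by the percent of a member's bases that are intronic (x axis), with medians as points, quartiles as bars and the number of members on top. Members that reached 1 TPM in both control groups are in grey where a class held at least 20. Medians go from 0.68 at up to 10% intronic bases to 2.88 at 50% to 75%, and the dashed line is the median of all transcripts tested, 0.89.

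The same order appeared within genes. In 412 genes the most and the least intronic tested member differed by at least 10 percentage points, and the more intronic of the pair had the higher log2 fold change in 267 (64.8%), with a median difference of 0.86. Members with a whole intron gave 284 higher and 0 lower of 828 (34.3%), and matched members without one 359 higher and 2 lower of 1546 (23.2%). Without HD exosome 4 the shares were 30.5% of 905 and 25.8% of 1905. The nuclear lncRNA list, led by MALAT1, summed to 88.6 to 117 TPM in control exosomes and 81.3 to 177 TPM in control granules. It summed to 0 to 376 TPM in HD exosomes (median 87.8) and to 71.5 to 785 TPM in HD granules (median 103), and its part in the intronic signal was not tested.

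Members that span small RNA genes were few but lay on the granule side. In release 29, the sequence of 70 members held a snoRNA or scaRNA gene (scaRNAs guide modification of spliceosomal RNAs). Of 68 tested, 35 (51.5%) rose in HD granules and 0 fell, with a median log2 fold change of 3.44, and without HD exosome 4 the counts were 31 and 1 of 69. Matched members without a small RNA gave 603 higher and 2 lower of 2295 (26.3%). Reads from a snoRNA and from its host intron cannot be told apart in these files. The introns of EIF4A2-219 and RPL23-209 are printed with the snoRNA in capitals (SNORD2 and SNORA21).
EIF4A2-219 intron, chr3:186784697-186784961, plus strand: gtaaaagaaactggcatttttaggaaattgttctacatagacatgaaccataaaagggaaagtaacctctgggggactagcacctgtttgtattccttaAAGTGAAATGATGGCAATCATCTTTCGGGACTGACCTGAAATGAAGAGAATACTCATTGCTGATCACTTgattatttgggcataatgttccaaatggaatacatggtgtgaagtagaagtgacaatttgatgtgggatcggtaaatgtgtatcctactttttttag
RPL23-209 intron, chr17:38852733-38853021, minus strand: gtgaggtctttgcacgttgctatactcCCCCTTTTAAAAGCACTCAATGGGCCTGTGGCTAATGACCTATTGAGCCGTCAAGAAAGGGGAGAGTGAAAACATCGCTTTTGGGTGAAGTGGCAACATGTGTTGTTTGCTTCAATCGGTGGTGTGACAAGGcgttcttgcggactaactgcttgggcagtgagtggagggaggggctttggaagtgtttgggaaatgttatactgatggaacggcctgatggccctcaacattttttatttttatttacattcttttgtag
SNORD2 takes 69 of the 265 bases and SNORA21 132 of the 289. EIF4A2-219 had 2.00 ± 0.5 TPM in control exosomes, 17.7 ± 2.75 in control granules and 16.9 ± 2.21 in HD granules (SD, n = 5), and its HD exosomes lay between 0 and 3.52 TPM. It rose in HD granules (log2 fold change 3.82, SE 0.73, edgeR adjusted p = 0.0076). RPL23-209 had 0.260 ± 0.387 TPM in control exosomes and 25 ± 5.32 TPM in control granules. In HD granules it lay between 8.46 and 42.1 TPM and in HD exosomes between 0 and 10.1 TPM, so 1 exosome lay above the lowest granule. It rose (log2 fold change 4.49, SE 1.33, edgeR adjusted p = 0.0446), a call lost without HD exosome 2 or 4 or HD granule 1, 2, 4 or 5 (edgeR adjusted p from 0.0550 to 0.130).

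Genes of RNA processing supplied many members. The lists below were chosen with earlier results of these data known, and each count is read beside the 11.2% of all transcripts and the 29.1% of all members called higher in HD granules. Among hnRNPs and other RNA-binding proteins, 62 of 143 tested members rose and 0 fell (median log2 fold change 3.17), while the coding transcripts of these genes had a median of -0.14. HNRNPH1-222, described above, was the highest of them in HD granules. DDX5-215, from an RNA helicase gene, measured 12.9 to 39.6 TPM in HD granules and 0 to 5.97 TPM in HD exosomes (log2 fold change 2.91, SE 0.63, edgeR adjusted p = 0.00835). RBM39-223, from a splicing factor gene, measured 14.5 to 23.3 TPM and 0 to 9.89 TPM (3.11, SE 0.70, edgeR adjusted p = 0.0101). In this group HNRNPC-206, at 149 to 175 TPM in control exosomes and 31.1 to 67.2 TPM in control granules, was not called in the HD libraries (log2 fold change -0.48, edgeR adjusted p = 0.739).

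For SR proteins and their kinases, which promote exon recognition, 25 of 61 rose and 0 fell (median 2.91, coding transcripts 0.34). SRSF11-214 measured 10.8 to 28.7 TPM in HD granules and 0 to 11.4 TPM in HD exosomes (log2 fold change 2.64, SE 0.67, edgeR adjusted p = 0.019), with a slight overlap. CLK1-210, from the gene of a kinase that phosphorylates SR proteins, measured 6.37 to 17.1 and 0 to 6.68 TPM (3.19, SE 0.81, edgeR adjusted p = 0.02). TRA2B-212 was higher in control exosomes (17.3 to 24.7 TPM) than in control granules (1.33 to 3.59 TPM), and in the HD libraries it did not pass (-1.68, SE 0.72, edgeR adjusted p = 0.165). Core spliceosome genes gave 22 of 64 higher and 0 lower (median 2.46, coding transcripts 0.29). Of these, SF3B6-202, from a U2 snRNP subunit gene, measured 10.9 to 50.9 TPM in HD granules and 0 to 9.27 TPM in HD exosomes (3.56, SE 1.02, edgeR adjusted p = 0.0385). None of these 3 calls held in every fit with 1 library left out. Each was lost without HD granule 2, 4 or 5, SRSF11-214 and SF3B6-202 also without HD granule 1, and SF3B6-202 without HD exosome 4 (edgeR adjusted p from 0.0507 to 0.119).

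Translation genes were the next lists. Of 150 tested members of cytosolic ribosomal protein genes, 50 (33.3%, beside 29.1% of all members) rose and 0 fell (median 2.54), and here the coding transcripts had a median of 1.26. RPL21-209 measured 10.8 to 108 TPM in HD granules and 0 to 0.214 TPM in HD exosomes (log2 fold change 7.92, SE 1.34). It had 6.289 reads over all HD exosomes and passed the filter on low counts through the granules, so no p is given. RPL10-215 measured 32.6 to 50.4 TPM and 0 to 20.6 TPM (2.56, SE 0.68, edgeR adjusted p = 0.0251), and lost the call without HD granule 1, 2, 4 or 5 (edgeR adjusted p from 0.0633 to 0.0782). Among the exosome-side members of this list, RPL4-203, RPL8-204 and RPL13-213 had control means of 283, 230 and 155 TPM in exosomes and 102, 23.5 and 35.1 TPM in granules, and none was called in the HD libraries. Translation factors gave 36 of 83 higher and 0 lower (median 2.94, coding transcripts 0.18). EIF4A1-235 measured 16.6 to 24.9 TPM in HD granules and 0 to 3.49 TPM in HD exosomes (3.98, SE 0.71, edgeR adjusted p = 0.0076).

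Aminoacyl-tRNA synthetases, which charge tRNAs with amino acids, gave 19 of 36 higher and 0 lower (median 3.75, coding transcripts 0.06). YARS1-209 measured 3.95 to 15.3 TPM in HD granules and 0 to 2.60 TPM in HD exosomes (log2 fold change 4.03, SE 0.77, edgeR adjusted p = 0.0076). GARS1-221 measured 3.82 to 10.6 and 0 to 1.49 TPM (4.52, SE 0.98, edgeR adjusted p = 0.00833). QARS1-232 went the other way in control libraries, at 12 to 25.6 TPM in exosomes and 4.39 to 6.77 TPM in granules, and was not called in the HD libraries (-0.81, SE 1.01, edgeR adjusted p = 0.675).

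Genes known for detained introns gave 11 of 24 higher and 0 lower (median 3.4, coding transcripts 0.49). TAF1D-213 and MAT2A-204 belong here, and so does TAF1D-204, at 5.19 to 22.7 TPM in HD granules and 0 to 3.5 TPM in HD exosomes (log2 fold change 4.22, SE 1.01, edgeR adjusted p = 0.0138). Noncoding snoRNA host genes gave 7 of 15 higher and 0 lower (median 3.94), 4 of them from GAS5. GAS5-230 measured 41.8 to 80.8 TPM in HD granules and at most 0.311 TPM in HD exosomes (7.67, SE 1.65, edgeR adjusted p = 0.00796). It had 32.27 reads over all HD exosomes. Some of these values rest on 0 reads in all HD exosomes. The glycolytic list, which also holds the glucose transporter gene SLC2A1 (GLUT1), gave 1 of 13 higher (SLC2A1-213) and 1 lower (TPI1-204). The only higher call was thus not of an enzyme gene. The median was 1.38, with coding transcripts at -0.33. SLC2A1-213 had 8.821 reads over all HD exosomes, and lost the call without HD granule 2 or 4 (edgeR adjusted p 0.0549 and 0.0536). Without HD exosome 4 the glycolytic list gave 3 higher and 1 lower of 15, with a median of 2.10. In the same fit the other lists had 67 higher of 158 (hnRNPs and other RNA-binding proteins), 26 of 64 (SR proteins and kinases), 23 of 76 (core spliceosome), 47 of 155 (ribosomal proteins), 34 of 90 (translation factors), 17 of 42 (synthetases), 12 of 25 (detained introns) and 7 of 15 (snoRNA hosts), beside 28.8% of all members. In that fit 1 hnRNP member and 2 ribosomal protein members were lower.

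Members of Huntington-related genes were few: 11 members in 6 of 29 listed genes, of which 2 of 9 tested rose and 0 fell. HTT, the gene mutated in Huntington's disease, had 1 member. HTT-220 (7184 bases, not in release 29) measured 1.30, 2.89, 2.33, 1.55 and 2.63 TPM in control exosomes and 3.06, 1.91, 3.23, 2.47 and 3.35 TPM in control granules. In HD exosomes it measured 5.42, 1.25, 5.67, 0 and 4.82 TPM, and in HD granules 2.61, 2.09, 4.29, 2.53 and 2.45 TPM. The groups overlapped in both states, and the HD difference did not pass (log2 fold change -0.30, SE 0.63, edgeR adjusted p = 0.814). Its direction turned to 0.39 without HD exosome 2. Its share of HTT TPM was 23.3% to 44.5% in control exosomes, 28.6% to 50.1% in control granules and 22.9% to 63.2% in HD granules.

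The HD state itself was compared within each compartment. In exosomes, 0 of 1376 tested members were called with edgeR, beside 0.0% of 25005 transcripts; 30 members had an unadjusted p under 0.05, and DESeq2 called 5 (0.363%), all lower in HD, beside 0.216% of all transcripts. In granules, 0 of 3358 members were called with edgeR, beside 0.0% of 57417 transcripts, and 21 had an unadjusted p under 0.05. DESeq2 called 1 higher and 1 lower in granules, where the share over all transcripts was not counted. The median log2 fold changes of HD over control were -0.27 in exosomes and 0.10 in granules. HD exosomes 2, 3 and 4 were shallow, so differences in exosomes may not have been detectable at this depth. Without HD exosome 1, edgeR called 47 of 1508 members lower in HD exosomes (3.12%), beside 3.64% of 26901 transcripts, a share near the background.

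Whether the compartment difference depended on the state was tested as an interaction over all 20 libraries. Of 3461 members tested 8 were called, beside 0.096% of 56268 transcripts. They were ADAM17-202, CASC3-202, DDX42-216, DEPDC1-203, HSPA8-219, IGF2R-207, MYH9-217 and SNHG16-205. Except for ADAM17-202, they had 0 reads in all HD exosomes, or 3.29 reads for DDX42-216, so the calls rest on transcripts listed at 0 or near 0. SNHG16-205 measured 1.23, 0.947, 0.616, 1.04 and 0.817 TPM in control exosomes and 0 in all 5 HD exosomes, with 2.89 to 5.73 TPM in control granules and 2.04 to 5.07 TPM in HD granules (edgeR adjusted p = 0.000619). The granule groups overlapped, and the 2 exosome groups did not. ADAM17-202 went the other way, at 0 in all control exosomes and at 0.323, 0.179, 3.39, 0 and 2.40 TPM in HD exosomes (edgeR adjusted p = 0.0248).

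The annotated class as a whole, without a threshold on level, held 3.44% ± 0.20 of named TPM in control exosomes and 4.26% ± 0.82 in control granules (SD, n = 5 each). The difference did not pass an exact 2-sided permutation test (p = 0.0556, adjusted p = 0.222 over 12 tests, where 0.00794 is the smallest p possible). HD granules held 4.59% ± 1.14 and HD exosomes 6.87% ± 7.04, with replicate 4 at 19.3% (exact permutation test, adjusted p = 0.817). HD against control did not pass in exosomes (adjusted p = 0.683) or in granules (adjusted p = 0.817), where exact permutation tests of 5 against 5 were used. Taken as a percent of the TPM of genes with a protein-coding transcript, the control difference was 2.50 percentage points towards granules (exact permutation test, adjusted p = 0.0238). The part of other RNA classes in named TPM can move the class share. Protein-coding transcripts held 34.5% to 54.9% of named TPM in control granules and 50.8% to 61.0% in control exosomes.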

How the data were processed

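Transcript levels were taken from the deposited Salmon tables of 20 libraries. Per the submitters' processing notes, Trimmomatic, cutadapt, FastQC and Salmon were used, with build GRCh38.p14. The sources used here give no version of these tools and no annotation release. Each table gives a deposited TPM value and a deposited expected count (an estimated number of reads) for each transcript. Salmon divides reads among transcripts that share sequence, so members that share exons are uncertain, and entries without a gene name stayed out of all fits.

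Expected counts were rounded. Transcripts were kept by filterByExpr (minimum count 10), scaled by TMM, and compared in R 4.3.3 by edgeR 4.0.16 (quasi-likelihood F test, robust), with Benjamini-Hochberg adjustment over all transcripts tested. The SE is the log2 fold change divided by the square root of F. Usage was tested with diffSpliceDGE on genes with at least 2 tested transcripts, and class shares with exact permutation tests in scipy 1.17.1. All named transcripts entered each fit, which used only the 2 groups compared, except the interaction. The fits were tested on simulated data. Alternatives were RLE scaling, DESeq2 1.42.0, no filter, a replicate block, other class denominators and each library left out. Thinned reads, the TPM of coding genes as a class denominator, and class shares without 3 libraries were added after seeing the data.

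Introns and intronic bases come from GENCODE release 29, matched by transcript identifier, with introns of at least 30 bases. Gene coordinates count from 1.

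The members and lists were chosen with earlier results of these data known. Named members are the 8 highest in each control group, the 8 with the largest HD difference at 2 TPM or more without overlap (or the 5 smallest p), the 5 smallest p in usage per direction, up to 3 per gene list, those with the highest share of their gene, those at the threshold, HTT and the interaction calls. After their values were seen, the 3 called members of each list with the highest HD granule level, the members with printed introns, and HNRNPH1-240, EIF4A2-225 and ATF7IP2-214 were added. Some members are not reported here.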

Additional observations from a re-analysis of the deposited data

Results flagged for a closer look

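Libraries far from the rest of their group were looked for with Dixon's test at the 95% level. For normally distributed values, chance alone passes it in about 1 of 20 groups. Exosome-only members held 0.259% of named TPM in HD granule 3, where the nearest HD granule had 0.0579%. In HD exosome 4, with 713 named reads, granule-only members held 3.81% and the whole retained-intron class 19.3% of named TPM, and RPS23-203 stood at 3935 TPM. HD granule 3 was also the high library for OAZ1-208 (79.9 TPM), TPI1-204 (98.9 TPM) and HTT-220 (4.29 TPM).

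Other single high libraries were HD exosome 5 for TAF1D-213 (8.68 TPM), HD exosome 3 for EIF4A1-230 (4.70 TPM) and RPL18-216 (1.92 TPM), and HD exosome 1 for CCT2-210 (0.467 TPM). Among control exosomes, replicate 3 was high for RPL18-216 (1.56 TPM) and replicate 1 for SPCS3-204 (0.120 TPM). In most of these the other libraries of the group were at 0, a case that always passes Dixon's test, so the flag carries no weight there.

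The compartment difference of 8 members differed between HD-induced and control cells in the interaction test of edgeR. On the log2 scale it differed by -7.89 for ADAM17-202, 7.4 for CASC3-202, 5.46 for DDX42-216, 9.51 for DEPDC1-203, 7.74 for HSPA8-219, 9.71 for IGF2R-207, 9.53 for MYH9-217 and 9.14 for SNHG16-205. These fitted values depend on the prior count where a group had no read and give no bound. Entries without a gene name, which no comparison used, took 86.6% of the reads of HD exosome 2, against at most 46.3% in a control exosome.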

How the results depend on the processing

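More members rose than fell in HD granules in every alternative run, and the number of calls varied. Beside the 824 calls among members, RLE scaling gave 982, DESeq2 1069 and the fit without 3 doubted libraries 1167. No filter on low counts gave 147, and thinning all libraries but HD exosome 4 to 1327414 named reads gave 352 (336 higher, 16 lower). Of members and of all transcripts, 34.6% and 14.1% were higher with RLE scaling, and 37% and 13.6% with DESeq2. With no filter 4% and 0.294% were higher. After thinning, 25.7% and 6.3% were higher, and 1.22% and 2.81% lower. Leaving out 1 library gave 372 to 1490: 1338, 1307 and 1490 without HD exosome 1, 2 or 5, and 404, 377, 372 and 409 without HD granule 1, 2, 4 or 5. Usage calls ranged from 176 to 728 around 472, with the low end without HD granule 1, 2, 4 or 5 (199, 185, 176 and 200). The high end was without HD exosome 1. Usage was higher in 6.9% of members and 3.09% of all transcripts without HD granule 4, and in 22.3% and 12.2% without HD exosome 1. The median of all transcripts tested moved from 0.89 to 1.00 with RLE scaling and 0.78 with DESeq2, and that of the members from 2.41 to 2.54 and 2.19.

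HD against control in exosomes gave 5 calls with DESeq2, 7 without a filter, and 0 to 47 with 1 library left out, the 47 without HD exosome 1. In granules DESeq2 gave 2. With the replicate number as a block the calls were 822 in HD cells, 1141 in control cells (1692 without the block) and 330 for usage. Same-numbered libraries correlated between -0.13 and 0.35, not above 0.1 in every pair of any comparison, so the numbers do not pair the libraries.

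The control class share differed by 4.65 percentage points in reads (exact permutation test, adjusted p = 0.0476) and 2.50 in TPM of coding genes. The HD compartment difference turned from -2.27 to 2.11 in reads, and ranged from -3.51 to 0.83 with 1 library left out, the upper end without HD exosome 4, and 0.82 in TPM of coding genes without 3 libraries. HD against control granules turned from 0.33 to -0.211 in reads, -0.796 in TPM of coding genes, -0.138 to 0.612 with 1 library left out (the lower end without HD granule 3) and -0.953 with both changes. The number of members was 6794 at 0.5 TPM, 1693 at 2 TPM, 869 in both groups and 1723 with 1 TPM in all 5 libraries of a group. HTT-220 ranged from -0.396 to 0.389 with 1 library left out, turned at the upper end (without HD exosome 2), and was 0.0683 without 3 libraries. Of 726 alternative values for 46 members followed by name, 592 kept direction and call, 114 lost the call, 18 gained it and 2 reversed; 21 of 38 called members kept the call in all alternatives except no filter and thinning. The cause of these changes was not tested. The depth of HD exosomes 2, 3 and 4 limits what can be detected in HD exosomes.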
